A study of Mus musculus with 16 samples.

Results

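The genes of the ATP-binding cassette (ABC) transporters were followed through sperm RNA of mice lacking Dnmt2, a gene for a tRNA methyltransferase. A gene was taken as a member when its symbol began with Abc, a letter from a to g and a digit, and when a peak list named it as the gene whose transcription start lay nearest to a peak. This gave 46 of the 20176 genes named in 8 peak lists, and 347 of the 159135 peaks. The peaks are genomic stretches where sequenced sperm RNA piled up over the local level. All animals were Dnmt2-/- males of C57BL/6 background, stated to be 6 to 8 months old. Males 3 and 4 had been raised on a high-fat Western diet with 21% butter (HFD) and males 1 and 2 on a normal diet (ND). Each male gave an F library, the free RNA of the aqueous phase of the extraction, and a D library, the RNA bound to DNA and released by DNase digestion. The groups were therefore HFD F, ND F, HFD D and ND D with 2 males each. The sperm came from the epididymis, and a centrifugation step was used to remove other cells. The 8 libraries of C57BL/6 males were not analysed here, so nothing below compares Dnmt2-/- sperm with wild-type sperm.

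ABC proteins couple the binding and hydrolysis of ATP to the movement of lipids, sterols, drugs, bile salts, peptides or ions across membranes. Their nucleotide-binding domains share short motifs, of which the Walker A motif holds the phosphates of ATP and the signature motif closes over the nucleotide bound by the partner domain. The Abca subfamily holds mainly lipid transporters, Abcb the P-glycoproteins and several mitochondrial and lysosomal carriers, Abcc the multidrug resistance proteins and sulfonylurea receptors, Abcd the peroxisomal fatty acid carriers and Abcg sterol and drug exporters, whereas the Abce and Abcf proteins do not span membranes and act on ribosomes. Sperm lose membrane cholesterol as they gain the ability to fertilise, and cholesterol efflux is a known role of Abca1 and Abcg1 in other cells.

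Some stretches of ABC coding sequence whose motif codons lay wholly under a peak are shown first. They were chosen after their values were seen, and not every covered motif is shown. Whether motifs lay under peaks more often than other coding sequence was not tested. Each is 30 bases of the spliced transcript (GENCODE M21, GRCm38, the same assembly as mm10) on the coding strand, and capitals mark the codons of the motif. The signature motifs of Abcg2 exon 6 (chr6:58666899-58666928, plus strand), Abca3 exon 15 (chr17:24385906-24385935, plus strand) and Abce1 exon 15 (chr8:79687775-79687804, minus strand) lay under peaks in F of male 1, as did the Walker A motifs of Abca3 exon 27 (chr17:24405323-24405352, plus strand) and of Abcc1 exons 16 (chr16:14443388-14443417, plus strand) and 28 (chr16:14470479-14470508, plus strand). The D-loop motif of Abcb5 exon 14 (chr12:118919858-118919887, minus strand), whose search pattern takes in the end of the Walker B motif, lay under peaks in F of males 3 and 1.
Abcb5 exon 14, D-loop: ttaGATGAGGCTACATCTGCCCTGGACaca
Abcg2 exon 6, signature: ccgtggcATCTCTGGAGGAGAAagaaaaag
Abca3 exon 15, signature: caagttcCTGAGTGGGGGCATGaagcgcaa
Abce1 exon 15, signature: acagacaTTGTCTGGTGGTGAActtcagcg
Abca3 exon 27, Walker A: ttgGGTTTCAATGGAGCTGGAAAAACCaca
Abcc1 exon 16, Walker A: gtgGGCCAGGTAGGCTGCGGGAAGTCAtct
Abcc1 exon 28, Walker A: gtaGGTCGTACGGGAGCTGGGAAATCAtct

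Walker A was searched in translated coding sequence as a glycine, any 4 residues, a glycine, a lysine and a serine or threonine. The signature was searched as a leucine, isoleucine, valine or phenylalanine followed by a serine, a pair of glycines and a glutamine, glutamate or methionine. The D-loop was searched as aspartate, glutamate, any residue, serine or threonine, then serine, asparagine or alanine, any residue, leucine and aspartate. Of the 47 ABC genes with a peak nearby or inside, 95.7% held a Walker A hit, 89.4% a signature hit and 44.7% a D-loop hit. Among 20572 other coding genes these shares were 4.25, 0.656 and 0.034%. In the 20 ABC genes whose own exons or UTRs held a peak, 12 of 72 hits lay wholly under one, in 7 genes, and no hit overlapped a hit of another motif. A hit is a match of letters, and the absence of a peak over the other 60 says only that no peak was called there.

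The peak lists differed in size, from 7635 to 25406 peaks in F and from 3427 to 49918 in D. The deposited score has no stated unit. Its low values were whole multiples of a step, here read as 1 sequence tag. The step differed between libraries, from 0.322 in D of male 2 to 2.44 in D of male 3. Scores of different libraries are therefore not on the same scale, and tags are given beside many of them. The lowest peak of a list stood for 6 tags in 7 libraries and 14 in D of male 2, and a member without a peak may still have had RNA below that level. Peak calling in the study also required a rise over the surrounding 10000 bases. RNA above the tag level could therefore lack a peak as well. F of male 1 stood apart: 77.1% of the exon, UTR and intron peaks of all other genes were exon or UTR peaks there, against 1.91 to 22.7% in the other 3 F libraries and 1.70 to 3.69% in D. Markers of epididymal epithelium moved with this: exon or UTR peaks marked 16, 1, 25 and 0 of 29 in F of males 3, 4, 1 and 2, against 0 in each D library. Their summed exon and UTR scores, each on the scale of its own library, ran from 0 to 59098 in F and were 0 in D. Gpx5, Crisp1 and Clu, named because they scored highest of these markers, reached 4950, 1846 and 1503 in F of male 1. By the nearest start, 33.6% of all named genes had exon or UTR peaks in F of male 1. In the other libraries 0.228 to 5.03% did. Of the 15 sperm and spermatid markers named in the lists, 10 had exonic peaks in F of male 1 and 0 in the other libraries, with Prm2 at a score of 301 and Odf1 at 305. Of 8 leukocyte markers named, 0 had such a peak by the nearest start in any library, while inside annotated transcripts 1 had one in F of male 1 and 1 in D of male 3. Of 7 erythroid markers, such peaks marked 1 and 3 in F of males 4 and 1, against 1 in D of male 4 (Hbb-bs, Hba-a2 and Hbb-bt at 4658, 1851 and 586.9 in F of male 1). In F of male 1 the erythroid share, 42.9%, lay near that of all named genes, while the epididymal and sperm shares were 86.2 and 66.7%. By transcript the counts there were 26 epididymal, 9 sperm and 2 erythroid markers. The part of other cells in the ABC peaks was not tested.

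Exon and UTR peaks of ABC genes were found almost only in F, and there mostly in male 1. Exon and UTR peaks of members numbered 1, 1, 48 and 0 in F of males 3, 4, 1 and 2, and 0, 0, 0 and 1 in D of the same males. Intron peaks of members numbered 26, 25, 18 and 12 in F and 24, 24, 2 and 54 in D. Exon and UTR peaks thus made up 3.70% (1 of 27), 3.85% (1 of 26), 72.7% (48 of 66) and 0% (0 of 12) of the exon, UTR and intron peaks of members in F, against 0% (0 of 24), 0% (0 of 24), 0% (0 of 2) and 1.82% (1 of 55) in D. The Wilson 95% interval was 61.0 to 82.0% in F of male 1, while the upper limits in the other libraries ran from 9.61 to 65.8%. These intervals cover counting error only. The share averaged 20.1 ± 35.2% in F and 0.455 ± 0.909% in D (SD, n = 4 each), and the paired difference was 19.6 percentage points, F being higher in 3 of 4 males (two-sided exact sign-flip test, p = 0.25, where 0.125 is the smallest p that 4 males allow). Without male 1 it fell to 1.91 points, so the size of the difference rested on 1 library.

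**Figure D1:**
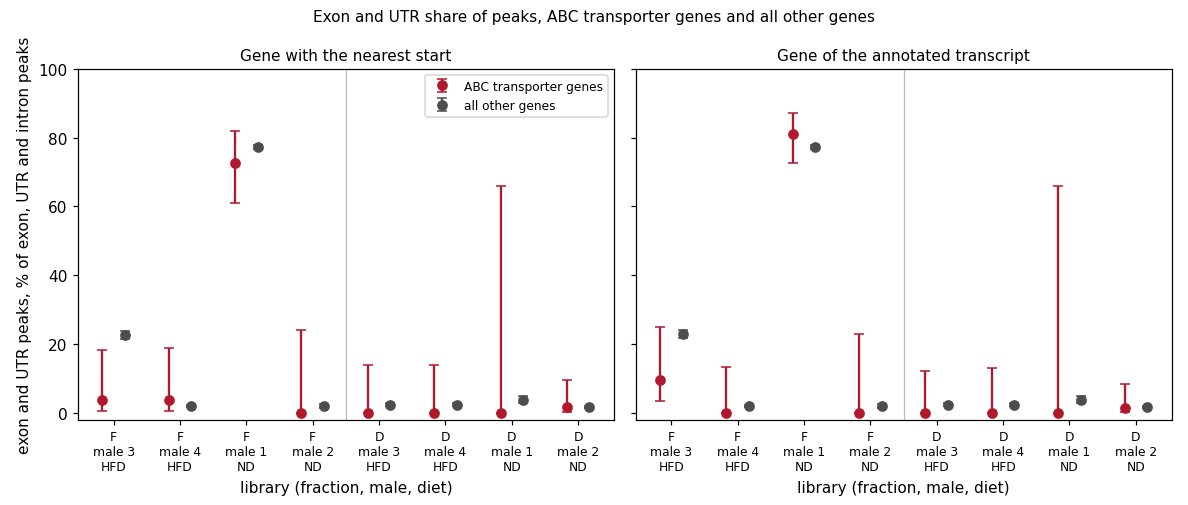
Exon and UTR peaks as a percentage of exon, UTR and intron peaks in each library, for ABC transporter genes (red) and all other genes (grey), with genes taken by the nearest start (left panel) or by the annotated transcript (right panel); bars are Wilson 95% intervals. Only F of male 1 stood high for ABC genes, at 72.7% and 80.9%, beside 77.1% and 77.3% for other genes.

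The members followed the rest of the genome in this. Members reached by exon or UTR peaks numbered 1, 1, 16 and 0 of 46 in F of males 3, 4, 1 and 2, which is 2.17, 2.17, 34.8 and 0% of members, beside 5.03, 0.610, 33.6 and 0.258% of all named genes. In D of the same males they numbered 0, 0, 0 and 1, beside 0.912, 0.848, 0.228 and 1.40% of all named genes. In F of male 1 the members were thus near the background. Such members averaged 4.5 ± 7.68 per F library and 0.25 ± 0.5 per D library (SD, n = 4 each), a difference of 4.25 genes (two-sided exact sign-flip test, p = 0.5). It was 0.333 without male 1 and 0 without males 1 and 3, a leave-out chosen after seeing the data.

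The exon and UTR share of members was also set against that of all other genes within each library. In F it was 3.70, 3.85, 72.7 and 0% for members and 22.7, 1.91, 77.1 and 1.95% for other genes in males 3, 4, 1 and 2. The mean difference was -5.87 percentage points, members being higher in 1 of 4 males (two-sided exact sign-flip test, p = 0.25). It shrank to -1.48 points without male 3 and turned to +12.2 points when peaks were weighted by score. In D the members averaged 0.455 ± 0.909% and the other genes 2.54 ± 0.833% (SD, n = 4 each), a difference of -2.09 points with members higher in 1 of 4 males (exact sign-flip test, p = 0.25). The gap in F was widest in male 3, where the interval of members (0.657 to 18.3%) lay below that of other genes (21.6 to 23.9%). With genes taken by transcript, as described next, the share of members there was 9.68% (3.35 to 24.9%), beside 22.8% for other genes (21.7 to 24.0%), and the intervals overlapped.

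The nearest start is not always the transcript that holds a peak, and for long ABC genes the distinction mattered. Of 93 exon or UTR peaks inside transcripts of ABC genes, 46 were listed under another gene, and of the 51 listed under a member, 4 lay in another gene's transcript. The peak that gave Abcc8 its exon peak in F of male 4 lay in exon 18 of Ush1c, and those under Abca7 and Abce1 in F of male 1 included the 3′ UTR of Cnn2 and of Otud4. The exon peak under Abcb4 lay in exon 26 of Abcb1b. Conversely, Abca3 had 21 exon and UTR peaks in its transcript but 7 under its name. By transcript, exon and UTR peaks numbered 3, 0, 89 and 0 in F of males 3, 4, 1 and 2, against 0, 0, 0 and 1 in D. Genes with such a peak numbered 2, 0, 19 and 0 of 44 in F, beside 6.48, 0.820, 40.9 and 0.350% of the 14871 genes with any peak in a transcript, and 0, 0, 0 and 1 of 44 in D, beside 1.24, 1.14, 0.309 and 1.89%. Abcb6, Abcd2 and Abcg4 were members with no peak in their own transcript, and Abcc2, which is no member by the nearest start, held 1 intron peak in D of male 2. The descriptions of single genes that follow use peaks inside the gene's own transcript.

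**Figure D2:**
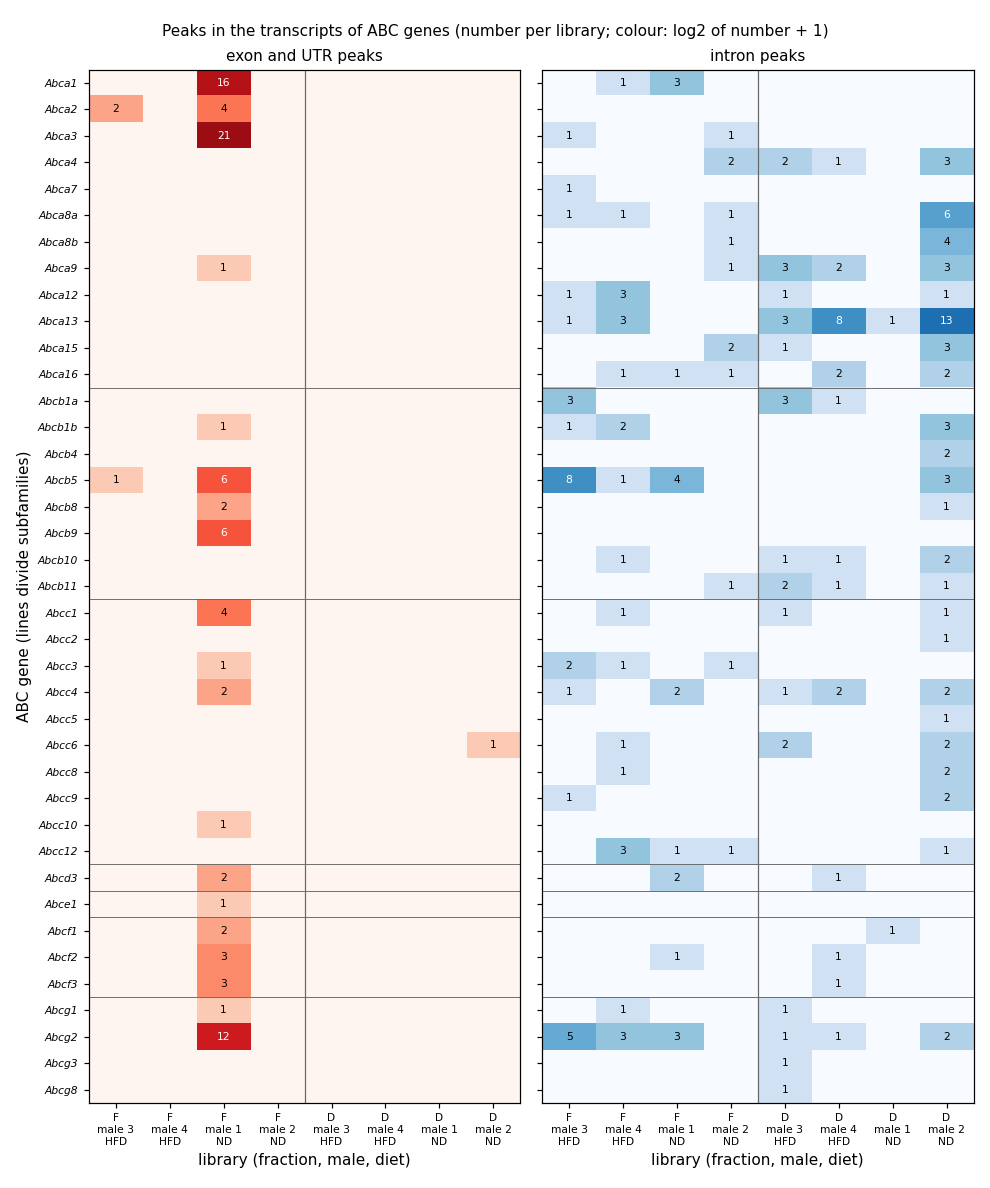
Number of exon and UTR peaks (left panel, red) and intron peaks (right panel, blue) inside the transcripts of the ABC genes named in the text, one column per library and one row per gene, with colour on a log2 scale of number + 1. Exon and UTR peaks crowd into the column of F of male 1 (89 peaks in 19 genes), whereas intron peaks are spread over the libraries of F and D.

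Among the lipid transporters of the Abca subfamily, exon and UTR peaks were confined to Abca1, Abca2, Abca3 and Abca9 in these libraries. Abca3, which loads phospholipid into the lamellar bodies of the lung (chr17:24351921-24410204), had 21 peaks in F of male 1 and 0 in every other library. They fell in 21 of its 32 exons, from exon 2 to exon 29, with scores of 40.4 to 222 and 27 to 148 tags. The highest lay in exon 4, at rank 426 of 25406 peaks, and the next, in exon 20, scored 194.6. Of 6075 genes so marked in that library, 9 had more such peaks. Abca1, which passes cholesterol and phospholipid to apolipoprotein A-I, had 16 peaks in 14 of 50 exons there, 3 of them in the 3′ UTR, and 0 elsewhere. Its peaks were low, at scores of 19.5 to 47.9 (13 to 32 tags), and 3 of the 16 were listed under its own name.

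Abca2, an endolysosomal lipid transporter abundant in brain, was an exception to the pattern of 1 library. It had 2 exon and UTR peaks in F of male 3 and 4 in F of male 1, with 0 in F of males 4 and 2 as in each D library. In F of male 3 they scored 114.5 in exon 11 and 99.6 in the 3′ UTR (54 and 47 tags). In F of male 1 they scored 76.4, 127.3, 215.6 and 100.3 in exons 3, 8, 47 and 48 (51 to 144 tags). The peaks in the 3′ UTR of exon 48 overlapped by 146 bases between the males (chr2:25448011-25448156), so that this end of the transcript was seen at the same place in an HFD and an ND male. Abca9 had a single exon peak, in exon 14 in F of male 1 (score 28.4, 19 tags), which covered its signature motif.

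The remaining Abca genes had no exon or UTR peak in their transcripts. Abca13, the longest ABC gene at 493 kb (chr11:9191942-9684871), had 1, 3, 0 and 0 intron peaks in F of males 3, 4, 1 and 2, against 3, 8, 1 and 13 in D, or 4 in F against 25 in D. The lists differed in size, and intron peaks in transcripts of other genes numbered 17659 in F and 31999 in D. The difference was not tested. Abca8a, Abca8b and Abca9, neighbours on chromosome 11, had 6, 4 and 3 intron peaks in D of male 2. Abca9 also held the highest ABC peak of D of male 4, in intron 4 on a GAAA simple repeat, with a score of 264.8 (109 tags, rank 175 of 21171). Abca16 had intron peaks in 5 libraries, namely 1 each in F of males 4, 1 and 2 and 2 each in D of males 4 and 2. Abca4, the retinoid lipid flippase of photoreceptors, had 2 in F of male 2, against 2, 1 and 3 in D of males 3, 4 and 2. Abca12, which carries lipid into the lamellar granules of skin, had 1 and 3 in F of males 3 and 4, against 1 each in D of males 3 and 2.

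In the Abcb subfamily, Abcb5, a relative of the P-glycoproteins known as a marker of limbal stem cells, was seen in 3 of 4 F libraries. It had 1, 0, 6 and 0 exon peaks and 8, 1, 4 and 0 intron peaks in F of males 3, 4, 1 and 2, against 0 exon peaks in D and 0, 0, 0 and 3 intron peaks. Its exon 14 had a peak in F of male 3 (score 55.1, 26 tags) and in F of male 1 (52.4, 35 tags), with 136 bases in common (chr12:118919797-118919932). The other exon peaks in F of male 1 lay in exons 15, 16, 24, 25 and 28 of 28, at scores of 22.5 to 53.9, so none preceded exon 14. A TTTC simple repeat in intron 13 of the same gene had a peak in F of 3 males, at scores of 167.5, 54.4 and 167.7 in males 3, 4 and 1 (79, 35 and 112 tags). It was the highest ABC peak of F in males 3 and 4. A further L1 element in intron 9 had peaks at 110.2 in F of male 3 (52 tags) and 24.0 in F of male 1 (16 tags).

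The P-glycoproteins themselves, which pump drugs out of cells, gave few exon peaks. Abcb1a had 0 in any library and Abcb1b 1, in exon 26 in F of male 1 (score 27.0, 18 tags). In introns, Abcb1a had 3, 0, 0 and 0 peaks in F of males 3, 4, 1 and 2, against 3, 1, 0 and 0 in D. One place in intron 17 of Abcb1a, with no annotated repeat, had a peak in D of both HFD males, at scores of 178.2 in male 3 and 201.6 in male 4 (73 and 83 tags; chr5:8715976-8716164 in male 3). It was the highest ABC peak of D in male 3 and had no overlapping peak in D of the ND males or in F. The D lists of males 1 and 2 held 3427 and 49918 peaks, so absence in male 1 says little. Places in intron 27 of Abca9 and near Abcc9 likewise had ABC peaks only in D of both HFD males. Diet was not tested at these places. Abcb9, a lysosomal peptide carrier, had 6 exon and UTR peaks in F of male 1, all in exons 8 to 12 of 12 and at scores of 18.0 to 43.4, and no intron peak in any library. The mitochondrial member Abcb8 had 2 exon peaks in F of male 1 (scores of 27.0 and 21.0). Abcb10 had an intron 8 peak on a CCCTAA repeat in F of male 4 (score 24.9, 16 tags). The same repeat had peaks in D of males 3, 4 and 2 (102.6, 87.4 and 48.3, or 42, 36 and 150 tags). The bile transporters Abcb4 and Abcb11 had no exon peak in their transcripts.

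**Figure D3:**
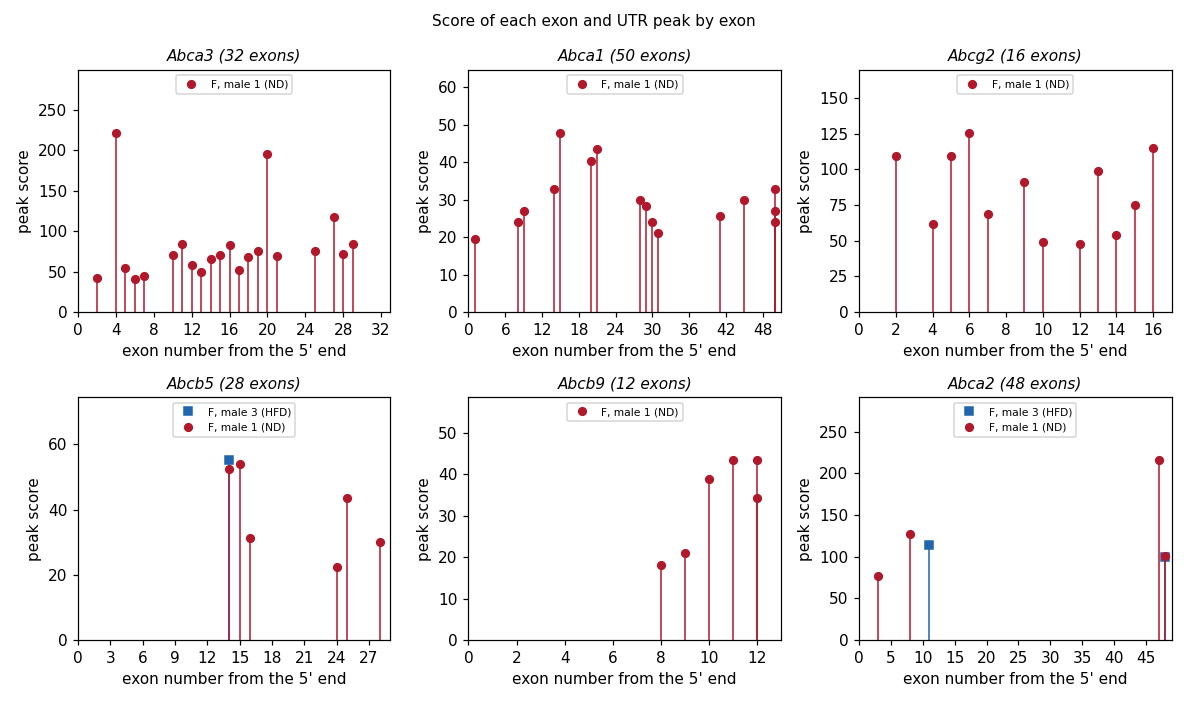
Score of each exon and UTR peak (vertical axis, starting at 0) by exon number counted from the 5′ end, for 6 ABC genes, in F of male 3 (HFD, blue squares) and F of male 1 (ND, red circles). Abca3 and Abcg2 were covered along most of their exons in male 1, while the peaks of Abcb5 and Abcb9 lay in the later exons. Scores of the males are not on the same scale.

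The Abcc subfamily, which holds glutathione-conjugate exporters and potassium channel subunits, had exon peaks in 5 genes. In F of male 1, Abcc1, an exporter of glutathione conjugates, had 4 (exons 5, 16, 19 and 28 of 31, scores of 19.5 to 32.9). Abcc4, which exports cyclic nucleotides, had 2 at scores of 18.0 and 15.0, and Abcc3 and Abcc10 had 1 each, at 31.4 and 24.0. Abcc6, whose loss causes ectopic mineralisation, had the only ABC exon peak of any D library, in exon 10 of 31 in D of male 2 (score 11, 34 tags, rank 36181 of 49918). The channel subunits Abcc8 and Abcc9 had no exon peak in their transcripts. Their partners Kcnj8 and Kcnj11 likewise had 0 there, although peaks in F of male 1 were listed under Kcnj11 by the nearest start (highest score 28.4, summed score 70.4). Abcc12 had intron peaks in F of males 4, 1 and 2 (3, 1 and 1) and in D of male 2 (1).

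The Abcd, Abce and Abcf subfamilies were small, and their exon and UTR peaks were all in F of male 1. Abcd3, a peroxisomal carrier of branched fatty acids, had 2, the higher in its 3′ UTR (score 44.9, 30 tags), while Abcd2 had none. Abce1, which splits ribosomes after translation, had 1 (score 24.0) and no intron peak. Abcf1, Abcf2 and Abcf3, relatives that act on translation, had 2, 3 and 3, with the highest in exon 6 of Abcf1 at a score of 56.9. They are short genes of 12.1 to 13.0 kb and had 4 intron peaks over all libraries.

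In the Abcg subfamily, Abcg2, the drug and urate exporter also called breast cancer resistance protein (chr6:58584491-58692451), had peaks in a larger share of its exons than Abca3. It had 12 exon peaks in F of male 1, in 12 of its 16 exons, and 0 in the other libraries. Their scores ran from 47.9 to 126 (32 to 84 tags), the highest over exon 6 with the signature motif. Intron peaks of Abcg2 numbered 5, 3, 3 and 0 in F of males 3, 4, 1 and 2, against 1, 1, 0 and 2 in D. A peak in intron 5 in F of male 4 (24.9, 16 tags) overlapped the exon 5 peak of F of male 1 (109.3, 73 tags). Abcg1, which loads cholesterol onto lipoproteins, had 1 peak in its 3′ UTR in F of male 1 (22.5, 15 tags), and Abcg3, Abcg4 and Abcg8 had no exon peak.

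Over the 7 subfamilies, exon and UTR peaks by transcript numbered 44 in Abca, 16 in Abcb, 9 in Abcc, 2 in Abcd, 1 in Abce, 8 in Abcf and 13 in Abcg. In F of male 1 such peaks were held by 4 of 16 genes in Abca and by 4 of 10 each in Abcb and Abcc. They were held by 1 of 2 in Abcd, 1 of 1 in Abce, 3 of 3 in Abcf and 2 of 5 in Abcg. These sizes count genes with a peak nearby or inside. Of all genes with any peak in a transcript, 40.9% held such a peak there. Groups this small cannot be told apart from that share. Intron peaks numbered 100, 46, 34, 3, 0, 4 and 19 from Abca to Abcg. Per 100 kb of gene length this came to 5.55, 6.18, 3.83, 2.93, 0, 10.5 and 7.44, so that the lead of Abca in intron peaks was not seen per length. The value of Abcf rests on 4 peaks over 38.1 kb. By the nearest start, exon and UTR peaks were 12.6% of the exon, UTR and intron peaks in Abca, 24.4% in Abcb, 20.7% in Abcc, 12.5% in Abcd, 55.6% in Abcf and 37.5% in Abcg, and in Abce both such peaks were exon or UTR peaks. No test was made between subfamilies. Their exon and UTR peaks came mainly from F of male 1, whereas intron peaks were spread over the libraries, with 37 of the 100 in Abca from D of male 2.

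Over all libraries, intron peaks marked more members than exon or UTR peaks did. They were found by the nearest start for 36 of 46 members, while 18 had exon or UTR peaks, 13 had both and 5 had neither (Abcb6, Abcb10, Abcc5, Abcc9 and Abcg4). The same totals were not counted for all named genes, so they are not a trait of the members. Within each library but F of male 1, more of all named genes likewise had an intron peak than an exon or UTR peak. Members with an intron peak numbered 13, 16, 9 and 9 in F of males 3, 4, 1 and 2, or 28.3, 34.8, 19.6 and 19.6%, beside 14.0, 19.5, 15.5 and 10.0% of all named genes. In D they numbered 16, 14, 2 and 20, or 34.8, 30.4, 4.35 and 43.5%, beside 23.0, 21.5, 5.28 and 35.7%. Their number averaged 11.8 ± 3.4 per F library and 13.0 ± 7.75 per D library (SD, n = 4 each), a difference of -1.25 genes, F being higher in 2 of 4 males (two-sided exact sign-flip test, p = 0.75). The sign turned to +2 without male 2 and to +1 without peaks on repeats.

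ABC genes are long, which bears on these shares. The 44 ABC genes with a peak in their transcript had a median length of 68.3 kb, and the 14827 others 27.8 kb. Per Mb of gene length, intron peaks of ABC genes numbered 7.40, 6.60, 5.55 and 3.43 in F of males 3, 4, 1 and 2, beside 4.21, 6.43, 4.84 and 2.67 for other genes. In D they numbered 7.40, 6.87, 0.528 and 16.6, beside 7.78, 7.18, 1.22 and 16.7. Per length the ABC genes were thus close to other genes in most libraries, and highest relative to them in F of male 3, where 8 of the 28 peaks were in Abcb5 and 5 in Abcg2. Across 47 ABC genes the number of intron peaks went with gene length, with Spearman's rho of 0.66 in F and 0.59 in D (Pearson's r of 0.36 and 0.83). The genes share libraries and are not independent. Without Abca13 Pearson's r was 0.42 in F and 0.48 in D.

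**Figure D4:**
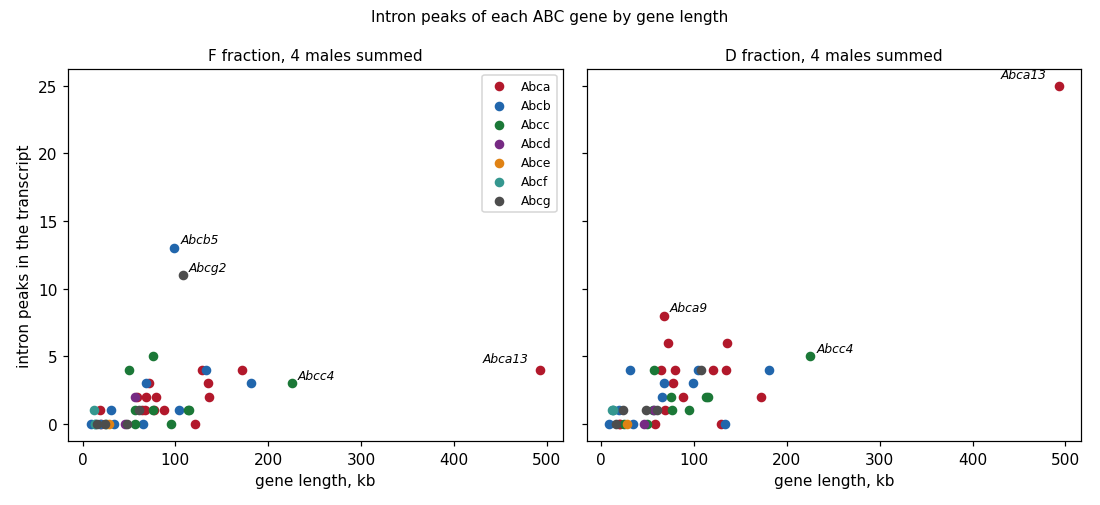
Intron peaks inside the transcript of each ABC gene (vertical axis) against gene length in kb (horizontal axis), summed over the 4 F libraries (left panel) and the 4 D libraries (right panel), with colour for subfamily. Abcb5 and Abcg2 had 13 and 11 intron peaks in F, and Abca13 had 25 in D and 4 in F. The lists differ in size: intron peaks in transcripts of other genes numbered 17659 in F and 31999 in D.

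Repeats made up much of the intron signal. In ABC transcripts 43 of 87 intron peaks lay on a repeat in F (49.4%) and 78 of 119 in D (65.5%), beside 52.0 and 58.2% for other genes. By library they numbered 21 of 28, 10 of 25, 6 of 21 and 6 of 13 in F of males 3, 4, 1 and 2. In D of the same males they numbered 19 of 28, 15 of 26, 0 of 2 and 44 of 63. The pooled difference thus rested largely on D of male 2 and was not tested. In D the repeats were mostly simple repeats (28 peaks), LINEs (19), LTR elements (14) and low-complexity runs (12). In F they were LINEs (15), simple repeats (11), LTR elements (8) and low-complexity runs (5). Intron peaks that touched an ABC exon numbered 0, 2, 4 and 0 in F of males 3, 4, 1 and 2, against 1, 1, 0 and 6 in D. All peaks carry the same strand label in the lists, so sense and antisense RNA could not be told apart.

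ABC peaks came back at the same place about as often as other peaks. Of 419 peaks near or inside ABC genes, 78 overlapped a peak of another library by at least 1 base (18.6%), beside 20.3% of 158716 other peaks. Among ABC peaks alone, 77 overlapped one another, at 37 places. Of these places 8 were seen in F alone, 14 in D alone and 15 in both fractions, and 5 had both fractions of the same male. With at least 50% of both peaks in common, 14 places were left. Only 3 places involved an exon or UTR peak, those of Abcb5 exon 14, Abca2 exon 48 and Abcg2 exon 5, and at 27 places every peak lay on a repeat. Only 2 places had more than 2 libraries, the TTTC repeat of Abcb5 and the CCCTAA repeat of Abcb10. D of male 2, the largest list, took part in 20 of the 37. The share of ABC peaks that recurred was lowest in F of male 1, where 6 of 116 did (5.17%, beside 7.85% of other peaks), and 17.7 to 33.3% in the other libraries, beside 20.2 to 28.5% of other peaks. These shares were not tested against each other.

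Promoter peaks of members were found in D of male 2, the largest list, where 3 of 46 members had one (6.52%), beside 2.28% of all named genes. They lay 438 bases before the start of Abca15, 571 before Abcb4 and 956 before Abcb10, with scores of 21.3, 7.73 and 5.80 (66, 24 and 18 tags). None of the other 7 libraries had a promoter peak of a member, where the background was 1.09, 0.724, 5.38 and 0.322% of all named genes in F of males 3, 4, 1 and 2 and 1.00, 0.922 and 0.248% in D of males 3, 4 and 1.

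No difference by diet was detectable. In F, members reached by exon or UTR peaks numbered 1 and 1 with HFD and 16 and 0 with ND, a difference of -7 genes (two-sided exact permutation test over 6 splits, p = 1, where 0.333 is the smallest possible p). In D they numbered 0 and 0 with HFD and 0 and 1 with ND, differing by -0.5 (exact permutation test, p = 1). The ND values lay on both sides of the HFD values in F, and without male 1 the difference was +1. With 2 males per diet no difference could have passed a threshold of 0.05.

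Genes that work beside the ABC transporters were read in the same way, by the nearest start. Of all named genes, 5.03, 0.610, 33.6 and 0.258% had exon or UTR peaks in F of males 3, 4, 1 and 2. In D of the same males the shares were 0.912, 0.848, 0.228 and 1.40%. Of the 17 named genes of sterol and phospholipid handling, 6, 0, 14 and 0 had such peaks in F (35.3, 0, 82.4 and 0%). In D they numbered 0, 1, 0 and 0 (0, 5.88, 0 and 0%). Apoe and Npc2 scored 808.5 and 784.6 in F of male 1 (540 and 524 tags), and Rxra 86.9 in F of male 3 (41 tags). Npc2 is also among the 29 markers of epididymal epithelium. Of 13 named genes of glutathione and xenobiotic metabolism, 5, 0, 7 and 0 had such a peak in F (38.5, 0, 53.8 and 0%). In D they numbered 0, 0, 0 and 2 (0, 0, 0 and 15.4%). Gstm1 scored 181.2, Gstm2 143.7 and Nr1i2 92.8 in F of male 1. Of 14 named peroxisomal genes, 1, 0, 9 and 0 had such a peak in F (7.14, 0, 64.3 and 0%). In D they numbered 2, 0, 0 and 1 (14.3, 0, 0 and 7.14%). Pex19 scored 79.4 in F of male 1 (53 tags), and Pex14 51.3 in D of male 3 (21 tags). By transcript the peroxisomal counts were 1, 0, 12 and 0 in F and 1, 0, 0 and 0 in D. Those of glutathione and xenobiotic metabolism were 5, 0, 10 and 0 in F and 0, 0, 0 and 1 in D. The shares of all genes by transcript are given above. Of 3 ABC genes outside the name pattern (Cftr, Tap1 and Tap2), 1, 0, 2 and 0 had such a peak in F (33.3, 0, 66.7 and 0%) and 0 in each D library. The highest peak of Tap2, a subunit of the antigen peptide transporter, had 33 tags in F of male 3. Cftr, the chloride channel of epithelia, reached a score of 19.5 in F of male 1 (13 tags). The solute carriers, the other large transporter family, had 23, 1, 131 and 3 of 339 genes with one in F (6.78, 0.295, 38.6 and 0.885%) and 2, 4, 0 and 4 in D (0.590, 1.18, 0 and 1.18%). For ABC members these shares were 2.17, 2.17, 34.8 and 0% in F and 0, 0, 0 and 2.17% in D. The difference between the families was not tested.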

How the data were processed

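RNA peaks were analysed in 8 libraries of Dnmt2-/- sperm, F and D from each of 4 males. Per the labels and methods, the authors removed adapters and poor bases (cutadapt; Trimmomatic 0.36), used Hisat2 for alignment to GRCm38, and called and annotated peaks on mm10 per library with HOMER 4.9. The deposited value is a peak score whose unit and scaling are not given in the sources used here. All scores below 100 were whole tag steps within 0.2 tags. The study lists mapped reads per library, but the peak files hold none and those totals were not used here, so depth was judged by list sizes. A peak's class (exon, UTR, intron) goes by its centre.

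Each peak was assigned by the gene with the nearest start, and again by the annotated RefSeq transcript. F and D were paired because each male gave both, as the sources state. Shares and gene counts were tested with exact sign-flip tests over males or exact permutation tests (Python 3.11.15, pandas 2.3.3, scipy 1.17.1), which were checked on simulated data against bedtools 2.31.1 and scipy. Up to 3 genes with the highest exon or UTR score were named from each list, and of the members those with exon or UTR peaks, those with intron peaks in most libraries and those with neither. The members and lists were chosen with earlier results of these data known. Motif stretches and promoter, Abcb1a, Abca9 and Abcb10 places were named after their values were seen. Values of some single genes are not reported here, though totals include them. Columns of values left unused: 0.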

Additional observations from a re-analysis of the deposited data

Results flagged for a closer look

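F of male 1 stood far from the other 3 F libraries in the exon and UTR share of ABC peaks (72.7%, against 0 to 3.85%) and in the number of ABC genes with an exon or UTR peak (16, against 0 to 1). In D, male 2 stood apart with a share of 1.82% and 1 such gene, Abcc6, where the other 3 libraries had 0. By the nearest start, D of male 4 had 3 intron peaks of subfamily d against 0 in the other D libraries, though 1 of the 3 lay in the transcript of an Abcd gene and the others in Slc2a13, and F of male 1 had 1 intron peak of subfamily f against 0 in the other F libraries. Of 20 sets of 4 libraries looked at, 6 gave such a gap. In 4 of the 6 a single value stood against 3 zeros, which always passes the rule used. Shares and gene counts also come from the same peaks, so the number of gaps cannot be set against a chance rate.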

How the results depend on the processing

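Among the exact tests none reached 0.05, so the alternatives show direction and size only. With the fractions unpaired (no replicate block), the differences of F and D stayed at 19.6 points, 4.25 genes with exon or UTR peaks and -1.25 genes with intron peaks (exact permutation p = 0.143, 0.371 and 0.886). Leaving out 1 male at a time gave 1.91 to 26.8 points for the share, 0.333 to 6 genes for exons and UTRs, and -4 to 2 genes for introns; for members against other genes it gave -8.47 to -1.48 points in F and -2.82 to -1.55 in D; for diet in F it gave -15 to 1 genes and in D -1 to 0, with no test. Leaving out males 1 and 3, chosen after seeing the data, left 0 genes. Without peaks on repeats the intron difference was 1, of the opposite sign. With peaks weighted by score, members exceeded other genes in F by 12.2 points in place of -5.87; the weighted shares in F of male 1 were 76.2% for members and 22.3% for other genes, and the cause was not tested. With at least 50% of both peaks in common the shared places fell to 14 in place of 37, since the criterion is stricter. A stricter score limit and counting promoter, transcript-end and non-coding peaks as exonic changed no direction, nor did assignment by transcript. Absence of a peak is limited by the calling level of 6 to 14 tags and by the rise over the local region that peak calling required.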
